A study of Homo sapiens with 24 samples.

Results

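Keratins are the intermediate filament proteins of epithelial cells, and 10 of the 48162 genes in the deposited tables were taken as the keratins of duct and basal epithelium by their listed symbols. They comprise 4 simple keratins of duct lining cells (KRT7, KRT8, KRT18 and KRT19) and 6 keratins of basal or stressed stratified epithelium (KRT5, KRT14, KRT17, KRT6A, KRT6B and KRT16). All 10 were found. RNA-seq was run on 24 libraries, 3 for each of 8 groups, to ask how extracellular vesicles (EV) from pancreatic cancer cells act on normal pancreas cells.

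The recipient cells were 2 immortalised human lines, hTERT-HPNE, made with the telomerase gene and called HPNE below, and HPDE-H6c7, which comes from pancreatic duct epithelium and is called HPDE. Both were grown in serum-free keratinocyte medium and exposed for 24 h. Untreated cells received fresh serum-free medium, and a second control group received the residual medium that was left when vesicles had been isolated. The other groups received 1e10 vesicles per well. Their source was either the pancreatic carcinoma line PANC-1 or PPCL-68, of which the labels give only the name. Each recipient is a single line, so differences between HPNE and HPDE are differences between those lines. The design text calls the libraries of a group biological triplicates without saying how the cultures were separated, so p-values measure the spread between these libraries.

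A keratin filament is built from pairs of 1 type I and 1 type II protein. KRT7, KRT8, KRT5, KRT6A and KRT6B are type II, and KRT18, KRT19, KRT14, KRT17 and KRT16 are type I. KRT8 with KRT18 is the common pair of simple epithelia, KRT7 and KRT19 are typical of ducts, and KRT5 with KRT14 forms the network of basal cells. KRT6A, KRT6B, KRT16 and KRT17 are switched on in skin and other stratified epithelia after wounding or under stress.

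The type II genes lie together on chromosome 12 and most of the type I genes on chromosome 17, as the deposited coordinates give them (hg19, per the submitters' processing notes). On the plus strand of chromosome 12 lies KRT7, at chr12:52626304-52645970. The minus strand holds KRT6B at chr12:52840435-52845910, KRT6A at chr12:52880958-52887041, KRT5 at chr12:52908359-52914471 and KRT8 at chr12:53290977-53343738. KRT18 is the type I gene of that cluster, at chr12:53342655-53346685 on the plus strand, where its annotated span overlaps that of KRT8 by 1084 bases. The minus strand of chromosome 17 holds KRT19 at chr17:39679869-39684560, KRT14 at chr17:39738531-39743173, KRT16 at chr17:39766030-39772151 and KRT17 at chr17:39775689-39781094. KRT17 lies almost wholly within the annotated span of JUP, the desmosome protein plakoglobin, with 5403 bases in common on the same strand. JUP reached 185 FPKM in HPDE. The library kit kept no strand, so reads from overlapping stretches cannot be told apart.

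Several of these genes are close copies, which bears on how far their values can be separated. In GENCODE 29 the coding sequences of KRT6A and KRT6B are each 1692 bases long and differ at 42 positions (97.5% identical), with a longest identical run of 269 bases. KRT6C, the other KRT6 gene, is 97.9% identical to KRT6A and 98.5% identical to KRT6B. The stretch below, coding bases 656 to 745, was chosen because it holds 10 of the differences between KRT6A and KRT6B; capitals mark positions at which the 3 genes are not all the same.
KRT6A: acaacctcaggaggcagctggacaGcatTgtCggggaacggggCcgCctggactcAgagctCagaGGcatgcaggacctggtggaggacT
KRT6B: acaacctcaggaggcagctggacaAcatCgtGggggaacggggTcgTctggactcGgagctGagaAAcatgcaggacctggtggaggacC
KRT6C: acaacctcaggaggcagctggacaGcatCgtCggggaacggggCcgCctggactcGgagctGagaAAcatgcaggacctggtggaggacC
A read over this stretch can be placed, whereas one inside the shared runs cannot. Of all 50-base windows along the transcript, 47.1% in KRT6B and 39.1% in KRT6A were also present in another gene. With 100-base windows the shares were 24.6% and 18.2%. KRT18 shared 28.9% of its 50-base windows, mostly with its pseudogenes, KRT14 23.8% and KRT16 22.0%, mostly with each other and with KRT16 pseudogenes. KRT17 shared 16.0%. The other members shared at most 3.99%. Values of KRT6A, KRT6B, KRT18, KRT14, KRT16 and KRT17 are therefore uncertain to the extent that the counting split or dropped such reads. The same holds for ratios that include them. KRT6C itself stood at 0.0941 to 0.449 FPKM in HPDE.

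All 10 keratins were transcribed in HPDE, and most were near 0 in HPNE. Levels are given as FPKM, reads scaled to gene length and library total. Reads assigned to genes numbered 29209142 to 42206773 per HPDE library and 29874928 to 46490312 per HPNE library. In untreated HPDE, KRT5 was the most abundant member at 1804 ± 58.7 FPKM (SD, n = 3) and the 6th most abundant of all genes. KRT19 followed at 955 ± 63.3, KRT7 at 752 ± 49.5, KRT8 at 654 ± 9.41, KRT6A at 511 ± 20.1 and KRT14 at 482 ± 3.06 FPKM. Below them were KRT18 at 291 ± 7.15, KRT17 at 123 ± 4.92, KRT6B at 23.4 ± 1.40 and KRT16 at 1.99 ± 0.132 FPKM. The libraries of each gene did not overlap with those of its neighbour in this order. HPDE thus carried the duct set and the basal pair KRT5 and KRT14 at the same time, while KRT16, a usual partner of KRT6, was barely above 1 FPKM.

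**Figure D1:**
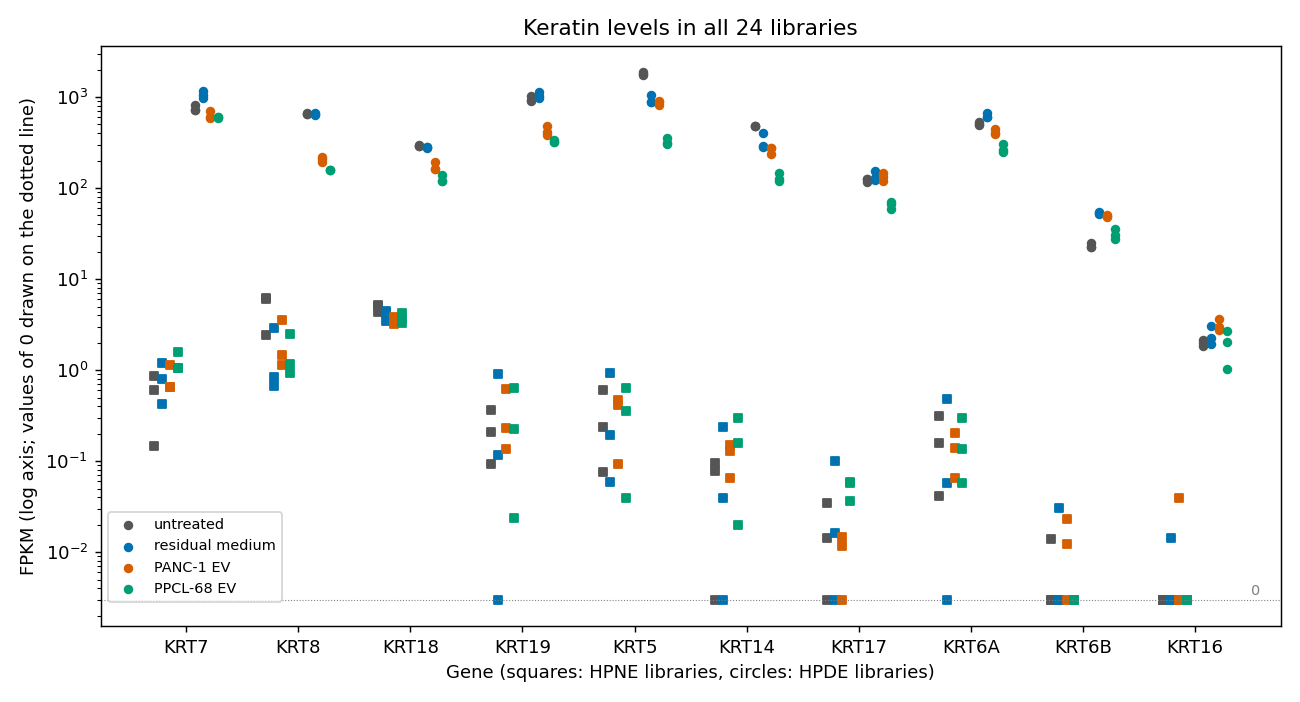
FPKM of each keratin (log axis) in all 24 libraries, with HPNE as squares, HPDE as circles and colours for treatment; values of 0 sit on the dotted line. Circles lie above squares for every gene, and in HPNE only KRT8 (0.665 to 6.28 FPKM) and KRT18 (3.21 to 5.13 FPKM) had a mean of at least 1 FPKM.

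Untreated HPDE was higher than untreated HPNE for 10 of 10 members in the fit of both lines (limma on log2(FPKM + 1), Benjamini-Hochberg adjusted), where 56.0% of all 12377 genes tested were higher and 27.7% lower. Differences ran from 1.58 for KRT16 (SE 0.15, adjusted p = 3.17e-09) to 10.45 for KRT5 (SE 0.19, adjusted p = 4.20e-21), the largest of all genes tested. Genes entered this fit by their mean FPKM over both lines. All members but KRT8 and KRT18 passed only through HPDE, so the filter largely set their direction. Their count and p-values are a description of the lines. The lines also differed in what they share with the labelled tissue. EPCAM, a surface protein of epithelial cells, was at 148 to 192 FPKM in HPDE, while no HPNE library held more than 12 of its reads. The summed level of 8 mesenchymal markers was 3005 to 9849 FPKM in HPNE and 22.0 to 34.5 FPKM in HPDE, with all 8 above 3 reads in every HPNE library. The summed duct marker list of 10 genes was 1.26 to 4.77 FPKM in HPNE and 232 to 291 FPKM in HPDE. EPCAM is on this list and made up most of the HPDE sum. Per group, 6 to 8 of the 10 were above 3 reads in every HPDE library, and 2 to 5 in HPNE. Acinar, endocrine, immune and endothelial lists summed to at most 0.351 FPKM in any library. The keratin results below therefore concern HPDE first, and those of HPNE rest on traces.

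In HPDE, vesicles from both sources were followed by lower levels of all 4 simple keratins than residual medium, and the basal keratins separated the sources. With PANC-1 vesicles, 6 of 10 members were lower and none higher (4 of 4 simple, 2 of 6 basal and stress), where 35.1% of the 12223 genes tested were lower and 28.2% higher. With PPCL-68 vesicles 9 of 10 were lower and none higher (4 of 4 and 5 of 6), against 36.4% of all genes lower and 31.3% higher. The median log2 difference of the members was -0.44 with PANC-1 and -1.18 with PPCL-68 vesicles, beside -0.04 and -0.03 over all genes. The 3 residual medium libraries serve as the control of both comparisons. In bulk RNA, fewer cells making a keratin and less keratin RNA per cell cannot be told apart.

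**Figure D2:**
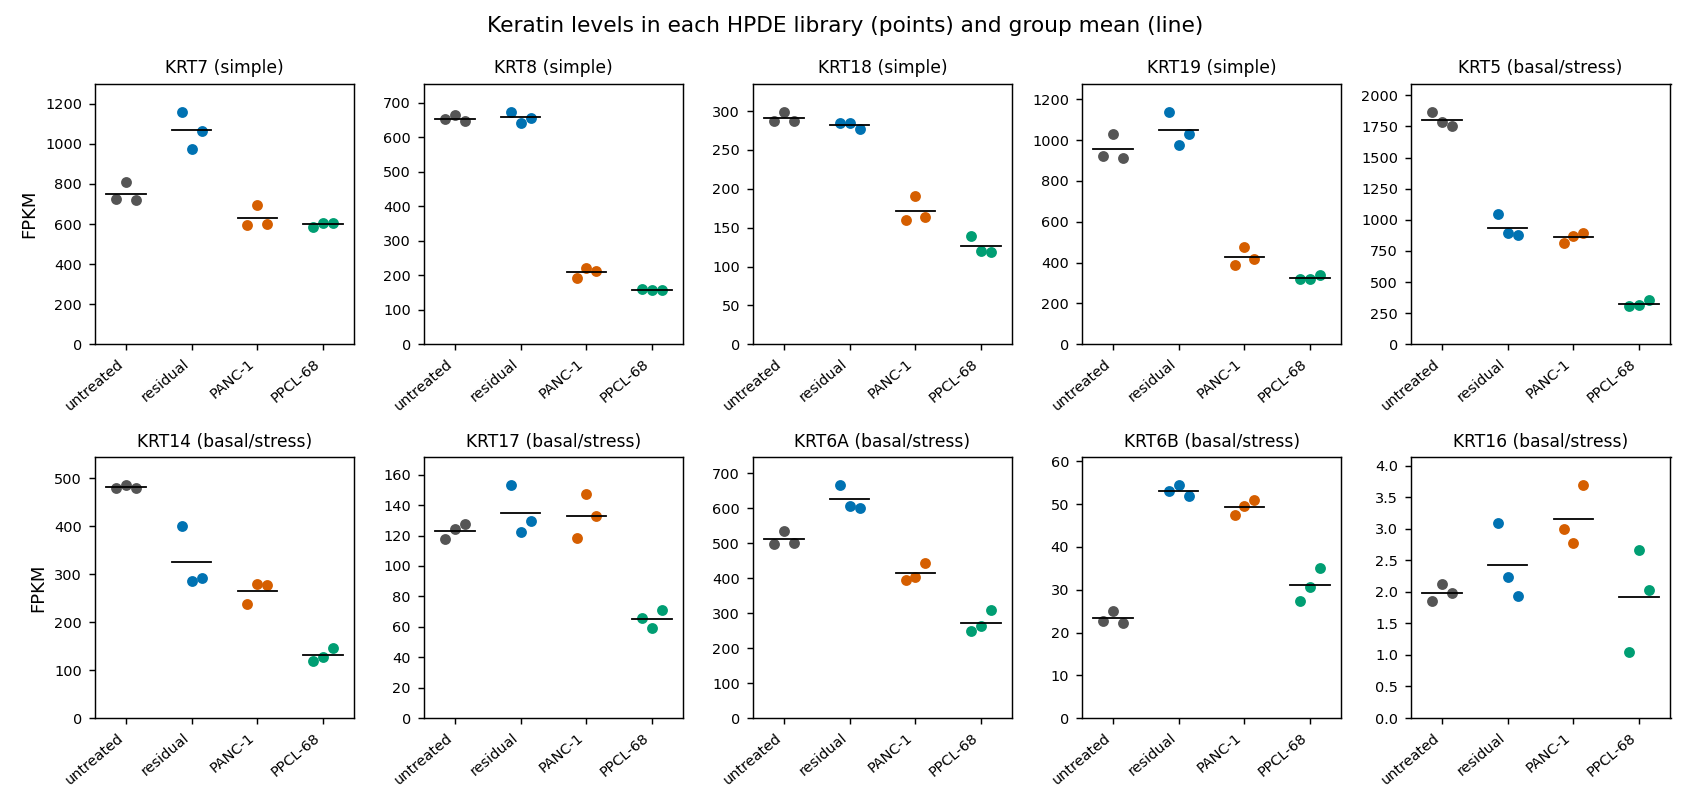
FPKM of each keratin in the 12 HPDE libraries (points) with the mean of each group of 3 (line); each panel has its own axis from 0. KRT8 sits at 641 to 674 FPKM in both controls and at 158 to 222 FPKM after vesicles, whereas KRT5 steps down from untreated to residual medium and again in the PPCL-68 libraries.

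KRT8, the type II partner in the simple pair, had the largest fall of the 10 members against residual medium with either source. Its level was 652, 664 and 645 FPKM in the untreated libraries, 674, 641 and 656 with residual medium, 192, 222 and 211 with PANC-1 vesicles, and 160, 158 and 158 with PPCL-68 vesicles. The controls overlapped, and the 3 bands of controls, PANC-1 and PPCL-68 did not. Against residual medium KRT8 fell by 1.65 on the log2 scale with PANC-1 vesicles (SE 0.05, adjusted p = 8.16e-12) and by 2.05 with PPCL-68 vesicles (SE 0.05, adjusted p = 7.33e-13). These were the 7th and the 6th largest falls of the 12223 genes. A fall of at least 1 past the threshold was made by 0.851% of all genes with PANC-1 and 2.16% with PPCL-68 vesicles.

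KRT18, the type I partner of KRT8, fell less. It stood at 287, 299 and 287 FPKM untreated, 284, 285 and 276 with residual medium, 160.2, 191 and 163 with PANC-1 vesicles, and 139, 121 and 119 with PPCL-68 vesicles. Every vesicle library was below every control library. The falls against residual medium were -0.72 (SE 0.07, adjusted p = 5.19e-07) and -1.16 (SE 0.07, adjusted p = 2.19e-09). The ratio of KRT8 to KRT18 moved from 2.25 ± 0.029 untreated and 2.33 ± 0.070 with residual medium to 1.22 ± 0.067 with PANC-1 and 1.26 ± 0.098 with PPCL-68 vesicles (SD, n = 3). The ratios of the vesicle libraries did not overlap with those of the controls, and the vesicle sources overlapped with each other.

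KRT19, the smallest keratin and a standard duct marker, had 924, 1028 and 914 FPKM untreated and 1139.7, 974 and 1029.7 with residual medium. It had 387, 477 and 415 FPKM with PANC-1 vesicles and 317, 319 and 340.1 with PPCL-68 vesicles. The controls overlapped and both vesicle groups lay below them. Against residual medium KRT19 fell by 1.30 (SE 0.08, adjusted p = 4.82e-09) and by 1.68 (SE 0.08, adjusted p = 1.89e-10), the 29th and 21st largest falls.

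KRT7, the other type II duct keratin, was higher with residual medium than in any other HPDE group. It had 727, 809 and 719 FPKM untreated, 1161, 977 and 1065 with residual medium, 595, 694 and 603 with PANC-1 vesicles, and 587, 607 and 604 with PPCL-68 vesicles. All residual medium libraries were above all others. KRT7 differed from residual medium by -0.76 with PANC-1 vesicles (SE 0.07, adjusted p = 6.46e-07) and by -0.83 with PPCL-68 vesicles (SE 0.07, adjusted p = 1.72e-07). From untreated cells it differed by -0.25 and -0.32 (adjusted p = 0.00803 and 0.00129). With no filter on low values the first of the calls against untreated was lost (adjusted p = 0.0515). KRT7 over KRT19 rose from 0.787 ± 0.00033 untreated through 1.02 ± 0.016 with residual medium and 1.48 ± 0.048 with PANC-1 to 1.84 ± 0.062 with PPCL-68 vesicles, with no overlap between groups.

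KRT5, the basal type II keratin, had 1869, 1786 and 1756 FPKM untreated, 1043, 890.2 and 879 with residual medium, 814, 872 and 896 with PANC-1 vesicles, and 308, 313 and 357 with PPCL-68 vesicles. Residual medium and PANC-1 libraries overlapped, untreated libraries were above them and PPCL-68 libraries below. The difference of PANC-1 vesicles from residual medium was -0.12 (95% interval -0.28 to 0.04, adjusted p = 0.172). With PPCL-68 vesicles KRT5 fell by 1.52 (SE 0.07, adjusted p = 3.13e-10). It also fell by 0.95 with residual medium against untreated (SE 0.07, adjusted p = 5.55e-07), the 10th largest fall of that comparison.

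KRT14, the type I partner of KRT5, followed a like course with more spread. Its values were 481, 486 and 479.9 FPKM untreated, 401, 285 and 292 with residual medium, 238, 279 and 278 with PANC-1 vesicles, and 119, 127 and 146 with PPCL-68 vesicles. The first residual medium library stood above the other 2, and every PANC-1 library was below all 3. KRT14 fell by 1.30 with PPCL-68 vesicles against residual medium (SE 0.11, adjusted p = 1.02e-07) and by 0.58 with residual medium against untreated (SE 0.11, adjusted p = 0.00232). Its difference with PANC-1 vesicles was -0.28 (SE 0.11, adjusted p = 0.035). Without residual medium replicate 1 it was -0.12 (adjusted p = 0.199), and without PANC-1 replicate 1 it was -0.21 (adjusted p = 0.142). The call was also lost with the replicate number as a block (adjusted p = 0.0503), with no filter (0.143), with size factors (0.0649) and with only the 6 libraries compared (0.0574). KRT5 over KRT14 was 3.74 ± 0.13 untreated, 2.91 ± 0.27 with residual medium, 3.26 ± 0.15 with PANC-1 and 2.49 ± 0.077 with PPCL-68 vesicles.

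The RefSeq promoter table (GRCh38.p14) held KRT5 among the members whose level turned on the vesicle source. The 300 bases from 250 before to 50 after its start, chr12:52520345-52520644 on the minus strand, are shown because KRT5 had the widest range of all members over the HPDE groups.
KRT5: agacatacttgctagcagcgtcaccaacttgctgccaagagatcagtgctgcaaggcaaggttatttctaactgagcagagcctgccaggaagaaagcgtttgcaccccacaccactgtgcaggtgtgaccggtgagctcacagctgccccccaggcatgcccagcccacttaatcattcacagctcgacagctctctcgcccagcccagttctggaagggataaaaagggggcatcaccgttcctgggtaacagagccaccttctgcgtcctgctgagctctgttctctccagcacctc
All letters are in lower case because none of 4 exact strings searched on both strands was found in this window. Variant forms of the motifs, such as the gataaaaa in this window, were not searched. The result therefore does not show that a motif is absent. The TATA box, searched as TATAAA, was present in 11.5% of 35116 promoters in the table. The AP-1 site, searched as TGANTCA, was present in 7.71% of them. The GC box, searched as GGGCGG, was present in 45.0%. The CCAAT box, searched under those letters, was present in 34.6%. The GC content of the KRT5 window was 56.3%. The table's window for KRT8 lies at a distal start site and is not printed. It held none of the 4 exact strings either and had a GC content of 50.7%. Other start sites of KRT8 were not searched. Promoters of KRT7, KRT18, KRT19, KRT14, KRT17, KRT6A, KRT6B and KRT16 were not analysed here.

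KRT17, a type I stress keratin, passed the test against residual medium with PPCL-68 but not with PANC-1 vesicles. It had 118, 124 and 127 FPKM untreated, 153, 122 and 129 with residual medium, 119, 147 and 133 with PANC-1 vesicles, and 66.0, 59.0 and 70.8 with PPCL-68 vesicles. The first 3 groups overlapped and the PPCL-68 libraries lay below them. KRT17 fell by 1.03 with PPCL-68 vesicles (SE 0.09, adjusted p = 1.26e-07). With PANC-1 vesicles the difference was -0.02 (95% interval -0.21 to 0.17, adjusted p = 0.856), and it turned to 0.014 when libraries were divided by size factors.

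KRT6A, the abundant type II stress keratin, had 497, 534 and 501 FPKM untreated, 665, 607 and 602 with residual medium, 394, 404 and 442 with PANC-1 vesicles, and 248, 263 and 307 with PPCL-68 vesicles. No 2 groups overlapped. It fell against residual medium by 0.59 (SE 0.07, adjusted p = 7.22e-06) and by 1.20 (SE 0.07, adjusted p = 3.46e-09). Residual medium was 0.29 above untreated (SE 0.07, adjusted p = 0.0141), a call that was lost without residual medium replicate 1 (adjusted p = 0.0627), without untreated replicate 1 (adjusted p = 0.0569) and with no filter (adjusted p = 0.0768).

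KRT6B, its near copy, had a different course. Its values were 22.8, 25.0 and 22.3 FPKM untreated, 53.1, 54.4 and 51.8 with residual medium, 47.6, 49.6 and 51.0 with PANC-1 vesicles, and 27.5, 30.6 and 35.2 with PPCL-68 vesicles. Untreated libraries were the lowest, and no 2 groups overlapped. KRT6B rose by 1.15 with residual medium against untreated (SE 0.07, adjusted p = 4.44e-08), fell by 0.76 with PPCL-68 vesicles against residual medium (SE 0.07, adjusted p = 2.62e-07), and differed by -0.10 with PANC-1 vesicles (95% interval -0.25 to 0.05, adjusted p = 0.213). Against untreated cells it was higher with both, by 1.05 (adjusted p = 1.28e-08) and 0.39 (adjusted p = 0.000183). KRT6A over KRT6B was 21.9 ± 0.54 untreated, 11.8 ± 0.69 with residual medium, 8.37 ± 0.28 with PANC-1 and 8.78 ± 0.22 with PPCL-68 vesicles. The part in this ratio of reads shared between the copies was not tested.

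KRT16, the usual type I partner of KRT6 in wounded epithelium, stayed between 1.04 and 3.69 FPKM (50 to 198 reads). It had 1.85, 2.12 and 1.98 FPKM untreated, 3.09, 2.23 and 1.94 with residual medium, 3.00, 2.77 and 3.69 with PANC-1 vesicles, and 1.04, 2.67 and 2.03 with PPCL-68 vesicles. PANC-1 libraries lay above the untreated and PPCL-68 libraries, and the other groups overlapped. Neither vesicle group differed from residual medium past the threshold (0.29, 95% interval -0.08 to 0.66, adjusted p = 0.16, and -0.26, 95% interval -0.63 to 0.11, adjusted p = 0.196). Without PPCL-68 replicate 2 the latter was -0.45 (adjusted p = 0.028), past the threshold. At this depth a difference of the size seen for KRT6A with PANC-1 vesicles lies inside the second of these intervals.

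**Figure D3:**
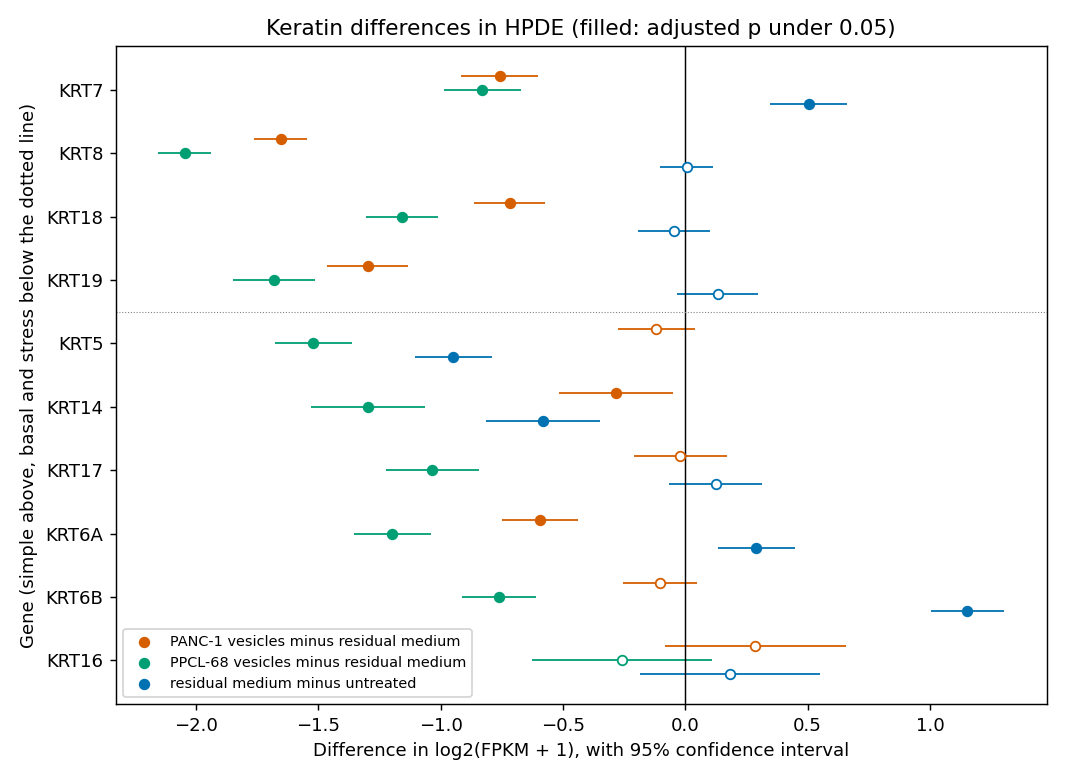
Differences in log2(FPKM + 1) with 95% confidence intervals for the 10 keratins in HPDE (n = 3 per group); filled points passed an adjusted p of 0.05. The 4 simple keratins above the dotted line lie left of 0 for both vesicle sources, at -0.72 to -2.05, and the basal keratins KRT5 and KRT17 are left of 0 past the threshold with PPCL-68 but not with PANC-1 vesicles.

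Residual medium, the control of the comparisons above, differed from fresh medium in several keratins. Against untreated cells 5 of 10 members differed, 3 higher (KRT7, KRT6A and KRT6B) and 2 lower (KRT5 and KRT14), where 9.93% of all genes were higher and 10.1% lower. KRT7 rose by 0.50 (SE 0.07, adjusted p = 0.000324). KRT8, KRT18, KRT19 and KRT17 differed by 0.0063, -0.05, 0.13 and 0.12 (adjusted p = 0.947, 0.676, 0.253 and 0.354). Against untreated cells, PANC-1 vesicles were followed by 7 lower and 2 higher members (all genes 34.4% lower and 26.3% higher), and PPCL-68 vesicles by 8 lower and 1 higher (all genes 36.1% and 30.1%). Relative to untreated cells KRT5 fell by 1.07 with PANC-1 vesicles (adjusted p = 1.76e-08), and it fell by 2.47 with PPCL-68 vesicles (adjusted p = 1.72e-12), the 5th largest fall. KRT8 differed from untreated by -1.65 and -2.04. KRT16 was the second member higher with PANC-1 vesicles (0.47, adjusted p = 0.0286), a call lost without PANC-1 replicate 3 (0.38, adjusted p = 0.108), untreated replicate 1 (0.44, adjusted p = 0.0768) or untreated replicate 3 (0.47, adjusted p = 0.0598), and with no filter (adjusted p = 0.122). These comparisons share the vesicle libraries with those above.

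Compared directly, the vesicle sources had their largest differences in KRT5, KRT14 and KRT17. PANC-1 libraries were higher than PPCL-68 libraries for 9 of 10 members and lower for none, where 25.2% of all genes were higher and 24.9% lower. The difference was 1.40 for KRT5 (SE 0.07, adjusted p = 5.27e-09), the 15th largest of all genes, 1.01 for KRT14 (SE 0.11, adjusted p = 4.04e-06) and 1.01 for KRT17 (SE 0.09, adjusted p = 5.78e-07). It was 0.39 for KRT8, 0.44 for KRT18 and 0.38 for KRT19 (adjusted p = 2.01e-05, 0.000105 and 0.000976). KRT6A and KRT6B differed by 0.60 and 0.66. KRT7 differed by 0.07 (95% interval -0.09 to 0.23, adjusted p = 0.454), and KRT16 by 0.55 (adjusted p = 0.0167), which was lost without PPCL-68 replicate 1 (0.31, adjusted p = 0.0783), without PANC-1 replicate 3 (0.45, adjusted p = 0.0686) and with no filter (adjusted p = 0.089).

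**Figure D4:**
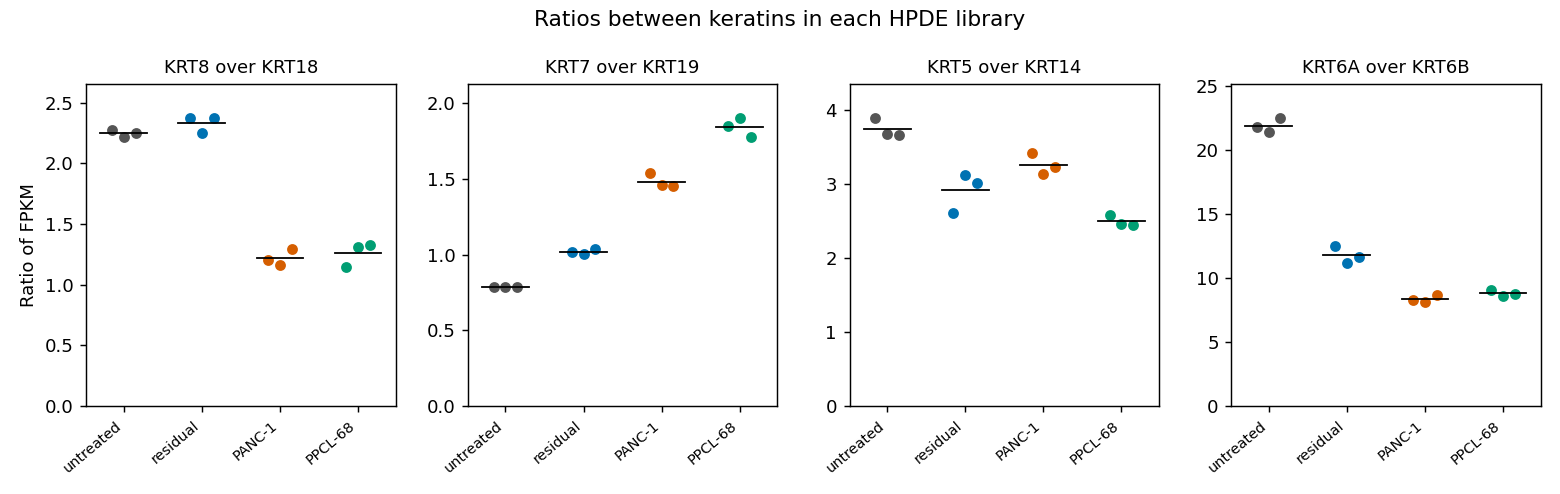
Ratios of FPKM between keratins in each HPDE library (points) with group means (lines), axes from 0. KRT8 over KRT18 is 2.22 to 2.37 in the controls and 1.15 to 1.33 after vesicles, and KRT7 over KRT19 rises from 0.787 untreated to 1.84 with PPCL-68 vesicles.

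Summed over the set, keratin RNA fell with both vesicle sources, and the share that was simple keratin differed between them. The 4 simple keratins summed to 2652 ± 129 FPKM untreated, 3054 ± 193 with residual medium, 1437 ± 131 with PANC-1 and 1209 ± 10.3 with PPCL-68 vesicles (SD, n = 3). The 6 basal and stress keratins summed to 2945 ± 51.4, 2078 ± 208, 1725 ± 97.5 and 828 ± 79.5 FPKM in the same order. The simple share of the sum was 47.4 ± 1.14% untreated and 45.4 ± 1.95% with PANC-1 vesicles, and 59.6 ± 1.16% with residual medium and 59.4 ± 2.07% with PPCL-68 vesicles. Residual medium and PPCL-68 thus had like shares at totals that differed, since PPCL-68 libraries were lower in both classes. The 10 genes held 1.20 ± 0.028% of all assigned reads untreated, 1.05 ± 0.076% with residual medium, 0.659 ± 0.038% with PANC-1 and 0.409 ± 0.019% with PPCL-68 vesicles. EPCAM, for comparison, was at 148 to 151 FPKM untreated, 184 to 188 with residual medium, 165 to 178 with PANC-1 and 171 to 192 with PPCL-68 vesicles, above the untreated level in every vesicle library. The 5 squamous differentiation markers summed to 6.64 to 6.82 FPKM untreated, 10.3 to 12.8 with residual medium, 7.73 to 8.85 with PANC-1 and 5.98 to 7.36 with PPCL-68 vesicles. Of these 5, 3 were above 3 reads in every library of each HPDE group. Residual medium was thus the highest group, as it was for KRT7, KRT6A and KRT6B with no overlap. Its mean was also the highest for KRT8, KRT19 and KRT17, with overlap. The part of the squamous markers in the keratin results was not tested.

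**Figure D5:**
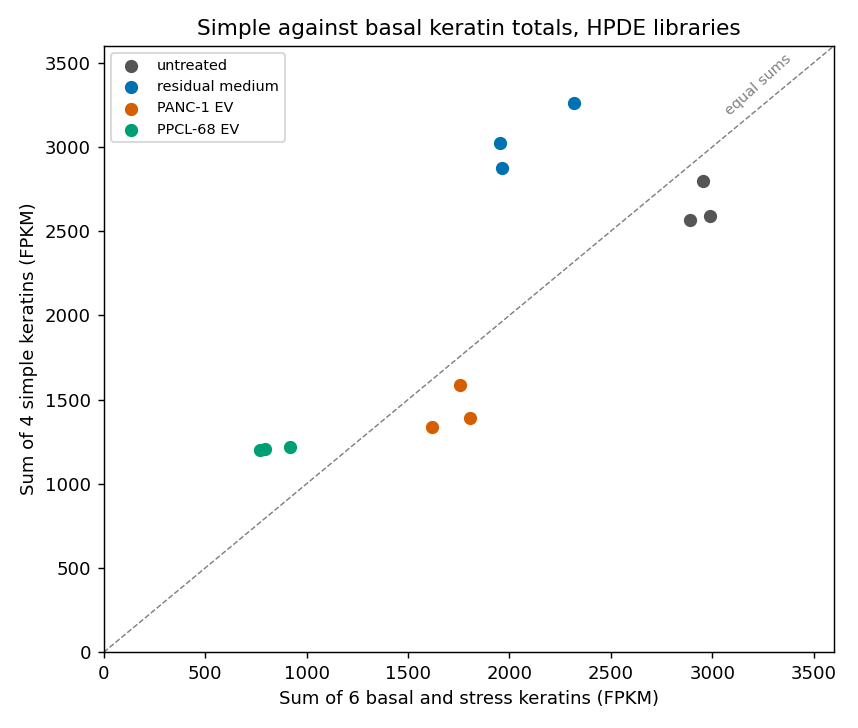
Sum of the 4 simple keratins against the sum of the 6 basal and stress keratins in each HPDE library, in FPKM, with the dashed line marking equal sums. Residual medium and PPCL-68 libraries lie above the line (59.6% and 59.4% simple on average), and untreated and PANC-1 libraries below it (47.4% and 45.4%).

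Across the 12 HPDE libraries, members were alike both within and across the simple and basal classes. Likeness is given as Pearson r of log2(FPKM + 1) with no test, since the libraries share 4 treatments. KRT8 with KRT19 had r = 0.994, KRT8 with KRT18 0.978 and KRT5 with KRT14 0.988. Across the classes, KRT6A with KRT19 had r = 0.922, KRT6A with KRT18 0.907 and KRT14 with KRT18 0.898, while KRT5 with KRT7 had 0.440. KRT6B had r between -0.15 and 0.58 with every other member. Outside the set, the genes most like KRT8 were CDC20, a mitotic activator of the anaphase-promoting complex (r = 0.998), TUBB, a beta tubulin (0.998), and AURKA, a spindle kinase (0.997). CNN3, ANXA6 and CDCA3 were most like KRT19 (0.994, 0.993 and 0.993). CCBE1, CAV1, the coat protein of caveolae, and KIF14, a mitotic kinesin, were most like KRT5 (0.992, 0.990 and 0.985). For KRT6A these were BARX2, SRPX and PLOD1 (0.986, 0.985 and 0.983).

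TP63, the master transcription factor of basal epithelium and a known activator of KRT5 and KRT14, moved apart from both against residual medium but not between the sources. It was at 73.9 ± 2.49 FPKM untreated, 69.8 ± 2.20 with residual medium, 139.8 ± 6.09 with PANC-1 and 63.4 ± 7.04 with PPCL-68 vesicles (SD, n = 3). TP63 was 0.99 higher with PANC-1 vesicles than with residual medium (SE 0.06, adjusted p = 1.02e-08), where KRT5 did not pass the threshold. With PPCL-68 vesicles, where KRT5 fell by 1.52, TP63 differed by -0.14 (SE 0.06, adjusted p = 0.063). Between the sources TP63 was 1.13 higher with PANC-1 vesicles (SE 0.06, adjusted p = 8.32e-09), and KRT5 and KRT14 were higher there too. Against untreated cells TP63 differed by 0.91 with PANC-1 vesicles (adjusted p = 2.07e-08) and by -0.22 with PPCL-68 vesicles (adjusted p = 0.00681). KRT5 and KRT14 were lower than untreated with both sources.

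The listed duct and basal transcription factors moved in both directions. Of 19 tested in HPDE, 9 were higher and 6 lower with PANC-1 vesicles than with residual medium, and 8 and 5 with PPCL-68 vesicles. Over all genes 28.2% were higher and 35.1% lower with PANC-1 vesicles, and 31.3% and 36.4% with PPCL-68 vesicles, so the share of factors that were lower was near or under that of all genes. FOXA2, a foregut factor, rose by 1.80 and 1.47 (SE 0.08 in both), and GATA6, a factor of pancreatic epithelium, by 1.18 and 1.27. SOX9, which maintains duct identity, fell by 1.16 and 1.06 (SE 0.06 in both), from 30.8 ± 0.640 FPKM to 13.3 ± 0.678 and 14.2 ± 0.871. With residual medium against untreated, 7 were higher and 2 lower (9.93% and 10.1% of all genes), with ELF3 at 0.97, GRHL3 at 0.88 and FOXA2 at -0.96.

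Desmosomes and hemidesmosomes anchor keratin filaments at the cell border. Of 15 desmosome and plakin genes tested, 6 were higher and 5 lower with PANC-1 vesicles, and 7 and 7 with PPCL-68 vesicles. Over all genes the shares were 28.2% and 35.1%, and 31.3% and 36.4%, so 5 of 15 lower with PANC-1 vesicles was near the share of all genes. PKP2, a plakophilin, fell by 0.83 and 1.09 (SE 0.05 in both). DSG3, the desmoglein of basal cells, rose by 0.68 with PANC-1 vesicles, where EVPL fell by 0.66. EPPK1 and DSC3 rose by 0.88 and 0.53 with PPCL-68 vesicles. Of 10 hemidesmosome and basement membrane genes, 7 were higher and 1 lower with PANC-1 vesicles, and 5 and 2 with PPCL-68 vesicles. LAMB3, the beta chain of laminin-332, rose by 1.02 and 1.35 (SE 0.05 in both), from 749 ± 26.5 FPKM to 1515 ± 19.3 and 1908 ± 48.0. DST and ITGB4 rose by 0.61 and 0.55 with PANC-1 vesicles, and LAMA3 by 0.76 with PPCL-68 vesicles. DST was at 28.9 FPKM untreated, 16.2 with residual medium and 25.4 with PANC-1 vesicles. The median of this list was 0.40 and 0.13, beside -0.04 and -0.03 over all genes. Against untreated cells 4 were higher and 1 lower with PANC-1 vesicles (all genes 26.3% and 34.4%), and 4 and 3 with PPCL-68 vesicles (30.1% and 36.1%). The medians against untreated were 0.05 and 0.11.

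With residual medium against untreated the anchors went partly the other way. DST, ITGA6 and ITGB4 fell by 0.80, 0.54 and 0.44, and the plakins PPL, PLEC and DSP fell by 0.54, 0.38 and 0.34. Of the 10 hemidesmosome genes 4 rose and 4 fell, and of the 15 desmosome genes 1 rose and 5 fell. Over all genes 9.93% were higher and 10.1% lower, so 1 of 15 higher was near the share of all genes.

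Of 11 keratin-binding and turnover genes tested, 2 were higher and 6 lower with PANC-1 vesicles, and 3 and 7 with PPCL-68 vesicles, beside 28.2% and 35.1%, and 31.3% and 36.4%, of all genes. AHNAK2 rose by 1.10 and 1.97 (SE 0.11 in both). HSPB1, a small heat shock protein, fell by 0.58 and 0.71, and SFN, the epithelial 14-3-3 protein, by 0.82 with PPCL-68 vesicles. TRADD, an adaptor of the TNF receptor, fell by 0.43 with PANC-1 vesicles. In residual medium against untreated 3 were higher and 2 lower, beside 9.93% and 10.1% of all genes. AHNAK2 was at -0.51, TRADD at 0.42 and HSPB1 at 0.35. Only 3 other epithelial keratins of the 21 listed passed the filter. KRT15, a basal type I keratin, fell by 0.53 and 0.95, and KRT80 by 0.46 and 0.93, while KRT10, the keratin of differentiated skin layers, rose by 0.33 with PPCL-68 vesicles (adjusted p = 0.0357). The call for KRT10 was lost with no filter. KRT80 was 0.30 higher with residual medium than untreated.

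In HPNE only KRT8 and KRT18 passed the filter of a mean of 1 FPKM. In each HPNE group 1 library lay apart from the other 2: replicate 3 of untreated and residual medium, and replicate 1 of both vesicle groups. Its root mean square log2 distance was 2.05 to 3.31 times the distance between the remaining pair. In HPDE this factor was 1.08 to 1.24. KRT8 divided the same way. It had 6.13, 6.28 and 2.44 FPKM untreated, 0.846, 0.665 and 2.92 with residual medium, 3.60, 1.13 and 1.48 with PANC-1 vesicles, and 2.50, 1.17 and 0.936 with PPCL-68 vesicles. The library that lay apart was the lowest of the untreated group and the highest of each other group, and all 4 groups overlapped.

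With residual medium KRT8 fell by 1.30 against untreated in HPNE (SE 0.41, adjusted p = 0.0263), where 25.2% of the 11503 genes tested were lower and 18.7% higher. With PANC-1 vesicles it differed from untreated by -0.96 (adjusted p = 0.116), where 11.5% of all genes were lower and 9.61% higher. With PPCL-68 vesicles it fell by 1.20 (adjusted p = 0.0356), where 23.8% were lower and 18.7% higher. Without the 4 libraries that lay apart, a choice made after the data had been seen, these differences were -2.04 (adjusted p = 1.12e-07), -1.65 (adjusted p = 1.24e-06) and -1.81 (adjusted p = 3.82e-07). The call for residual medium was lost without residual medium replicate 1 or 2 or untreated replicate 1 or 2 (adjusted p = 0.0911 to 0.101), with no filter (0.0721) and with only the 6 libraries compared (0.0513). The call for PPCL-68 vesicles was lost without PPCL-68 replicate 2 or 3 or untreated replicate 1 or 2 (adjusted p = 0.103 to 0.122) and with no filter (0.0963), and that for PANC-1 vesicles was gained without PANC-1 replicate 1 (adjusted p = 0.047) or untreated replicate 3 (adjusted p = 0.0441). Against residual medium KRT8 differed by 0.34 with PANC-1 (95% interval -0.57 to 1.24, adjusted p = 0.567) and by 0.10 with PPCL-68 vesicles (95% interval -0.81 to 1.00, adjusted p = 0.873). Without the 4 libraries the first was 0.39 (adjusted p = 0.0128) and the second 0.23 (adjusted p = 0.101).

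KRT18 in HPNE had 5.04, 5.13 and 4.35 FPKM untreated, 4.49, 3.46 and 4.24 with residual medium, 3.81, 3.78 and 3.21 with PANC-1 vesicles, and 4.27, 3.32 and 3.67 with PPCL-68 vesicles. Both vesicle groups lay below the untreated group. The differences from untreated were -0.35 (SE 0.11, adjusted p = 0.0484) and -0.30 (SE 0.11, adjusted p = 0.0491), each lost in several alternatives. Against residual medium they were -0.14 and -0.09 (adjusted p = 0.385 and 0.547). Of the 2 tested members, 0 passed the threshold against residual medium with either source in HPNE by limma, 0 had an unadjusted p under 0.05, and 0 passed by voom. Of all genes, 13.9% were higher and 10.3% lower with PANC-1 vesicles, and 20.3% and 19.7% with PPCL-68 vesicles. Between the sources 0 passed as well, also with an unadjusted p and by voom, where 3.22% of all genes were higher with PANC-1 and 2.25% lower.

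The other 8 keratins were traces in HPNE. KRT7 ranged from 0.147 to 1.57 FPKM (8 to 101 reads). KRT6B and KRT16 had at most 3 reads in all 12 libraries, 3 reads being the limit that a count of 0 allows. KRT5, KRT19, KRT6A, KRT17 and EPCAM were each highest in residual medium replicate 1, with 102, 54, 48, 8 and 12 reads. At that peak these genes stood at 0.0956%, 0.131%, 0.106%, 0.0891% and 0.0941% of their mean HPDE level. Such counts are read as levels of these libraries only, and no fold between treatments within HPNE was drawn from them.

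The change with vesicles was compared between the lines. In the interaction contrast of both lines (HPDE minus HPNE), 5 of 10 members had a lower change with PANC-1 vesicles against residual medium and none a higher one, where 12.5% and 8.65% of 12377 genes did. With PPCL-68 vesicles 9 of 10 were lower and none higher (13.6% and 12.1% of all genes). Both counts were the same without the 4 HPNE libraries that lay apart, but they depended on how low values were handled. With PANC-1 vesicles 2 members were called with a pseudocount of 0.1 and 2 with voom, and with PPCL-68 vesicles 3 with voom. For the 8 members under the filter in HPNE, the HPNE side of the contrast rests on traces, and log2(FPKM + 1) keeps its change small. Their contrast therefore largely repeats the HPDE change and cannot show how HPNE responds. Only KRT8 and KRT18 were tested within both lines. KRT19 differed by -1.33 and -1.66 (adjusted p = 0.00152 and 0.000134), and KRT5 by -0.09 (adjusted p = 0.846) and -1.49 (adjusted p = 0.000371). For residual medium against untreated, 2 were higher and 2 lower (21.0% and 17.1% of all genes), with KRT6B at 1.15 (adjusted p = 6.67e-08) and KRT5 at -1.01 (adjusted p = 0.00654). The count of 4 was 2 with a pseudocount of 0.1 and 1 with voom.

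Among the partner genes named in HPNE, JUP and KLF4 showed the widest differences. KLF4, a zinc finger factor of epithelia, fell by 2.11 with residual medium against untreated (adjusted p = 0.000586), and was 2.37 and 2.12 higher than residual medium with PANC-1 and PPCL-68 vesicles (adjusted p = 0.000701 and 0.000485). GATA6 was 1.07 and 1.59 higher than residual medium. JUP fell by 2.72 with residual medium (SE 0.26, adjusted p = 4.77e-05), from 14.3 to 1.31 FPKM, and was 1.52 higher than residual medium with PANC-1 vesicles (adjusted p = 0.00264). Of 5 transcription factors tested in HPNE, 4 were higher with PANC-1 vesicles and none lower, and 4 were higher and 1 lower with PPCL-68 vesicles. Of 7 desmosome genes 1 was higher and none lower with either source. Over all genes in HPNE 13.9% were higher and 10.3% lower with PANC-1 vesicles, and 20.3% and 19.7% with PPCL-68 vesicles. Without the 4 HPNE libraries that lay apart, KLF4 fell by 2.74 with residual medium and was 2.59 and 2.50 higher than residual medium with the vesicles, and GATA6 was 1.20 and 1.88 higher. JUP fell by 2.71 with residual medium and was 1.81 higher with PANC-1 vesicles. Without these libraries 4 of the 5 transcription factors were higher and 1 lower with either source, and 2 of the 7 desmosome genes were higher and 1 lower. Over all genes 28.2% were then higher and 30.8% lower with PANC-1 vesicles, and 28.2% and 37.3% with PPCL-68 vesicles.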

How the data were processed

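RNA-seq of 24 libraries was analysed. The authors deposited 1 table per library with FPKM, gene length, symbol and position, per the file headers. Per the labels' protocols the library kit was non-directional. CASAVA, STAR, HTSeq and DESeq2, and the build hg19, are named in the submitters' processing notes, with no versions or roles. The treatment of reads that fit several genes is not given in the sources used here. Because FPKM divides by the library total, a few abundant genes can shift all others. FPKM times gene length gave whole multiples of 1 read for 100% of values (tolerance 0.1 read), from which reads were recovered; the limit of 3 reads for a count of 0 covers counting error only, and 95% intervals of differences are limma's and cover the spread between libraries.

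Groups and replicate numbers came from sample titles. limma 3.58.1 (R 4.3.3; lmFit, eBayes with a trend) was fitted to log2(FPKM + 1), which understates changes of low genes, over genes whose mean reached 1 FPKM in the libraries fitted. The 12 libraries of a line shared a fit (8 residual degrees of freedom); comparisons of lines used all 24 (16 residual degrees of freedom). Tests were two-sided, Benjamini-Hochberg adjusted over all genes tested, with a threshold of 0.05. All log2 differences are on this scale. The members and lists were chosen with earlier results of these data known. Named genes were the 10 members, TP63, EPCAM, VIM, up to 3 partner genes per list and comparison with the largest called difference, and the 3 genes most correlated with each of KRT19, KRT5, KRT6A and KRT8. One partner gene that this rule names is not reported here. VIM was at 149 to 539 FPKM in HPNE and 19.6 to 28.6 FPKM in HPDE.

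Replicate numbers are shared by the groups. Deviations of same-numbered libraries from their group means had a correlation over 0.1 in every pair only for PANC-1 against PPCL-68 vesicles in HPNE (0.565, 0.292 and 0.500), where no member was called with or without the block. Alternatives were a pseudocount of 0.1, no filter, size factors, the replicate block, voom on recovered reads, only the 6 libraries compared, leaving out each library and, added later, leaving out 4 HPNE libraries. Tested on simulated data with 200 genes changed 2-fold, the fit recovered 95.9% of 195 tested in HPDE (12211 genes) and 74.87% of 195 in HPNE (11494 genes), for PANC-1 vesicles against residual medium. Unchanged genes called in these runs numbered 13 and 7. Each gene was drawn on its own, so the simulated HPNE data held no whole library that lay apart. The HPNE recovery therefore does not cover that feature of the real libraries.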

Additional observations from a re-analysis of the deposited data

Results flagged for a closer look

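KRT8 and KRT18, the members tested in both lines, changed differently in HPDE and HPNE by the interaction contrast (HPDE minus HPNE, log2 scale, limma, Benjamini-Hochberg adjusted). With PANC-1 vesicles against residual medium the difference was -1.99 for KRT8 (adjusted p = 0.00315) and -0.58 for KRT18 (adjusted p = 0.00358). With PPCL-68 vesicles it was -2.14 for KRT8 (adjusted p = 0.00129) and -1.07 for KRT18 (adjusted p = 6.48e-06). For residual medium against untreated cells KRT8 differed by 1.30 (adjusted p = 0.0256), a call lost with no filter (adjusted p = 0.0679) and without HPNE residual medium replicate 1 or 2 or untreated replicate 1 or 2 (adjusted p = 0.0685 to 0.0785). Without the 4 HPNE libraries that lay apart, the KRT8 values were -2.04, -2.27 and 2.04.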

How the results depend on the processing

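Of 360 single-member values in HPDE under other settings 351 kept their direction and side of the threshold, and of 360 with a library left out 344 did; in HPNE these were 69 of 84 and 47 of 72. With the replicate block 93 of 94 results kept theirs, the exception being KRT14 with PANC-1 vesicles against residual medium in HPDE (adjusted p = 0.0503); member counts were 5 with PANC-1 and 9 with PPCL-68 vesicles against residual medium under the block. No value that changed sign had passed the threshold, and the cause was not tested. KRT17 with PANC-1 vesicles against residual medium in HPDE was 0.014 with size factors and -0.097 to 0.074 with a library left out. With a library left out, KRT8 in HPDE residual medium against untreated was -0.012 to 0.024, KRT16 in HPDE with PPCL-68 vesicles against untreated -0.26 to 0.16, and KRT7 in HPDE between sources -0.0012 to 0.11. In HPNE, KRT8 with PPCL-68 vesicles against residual medium was -0.16 to 0.48, and between sources KRT8 was -0.092 to 0.50 and KRT18 -0.11 to 0.032.

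Counts of members called moved in HPNE, where 2 were tested. Residual medium against untreated (1 called) gave 0 with no filter and with only the 6 libraries, 0 to 1 with a library left out and 2 without the 4 libraries that lay apart. PANC-1 vesicles against untreated (1) gave 0 with pseudocount 0.1, no filter, size factors and voom, 0 to 2 with a library left out, and 2 without the 4 libraries. PPCL-68 vesicles against untreated (2) gave 1 with pseudocount 0.1, size factors, voom and the 6 libraries, 0 with no filter, and 0 to 2 with a library left out. PANC-1 vesicles against residual medium (0) gave 1 without the 4 libraries. For differences between the lines, PANC-1 vesicles (5) gave 2 with pseudocount 0.1 and with voom and 3 to 5 with a library left out, PPCL-68 vesicles (9) gave 3 with voom, and residual medium (4) gave 2 with pseudocount 0.1 and 1 with voom. Of 30 counts of partner genes called, 6 moved clearly with no filter. In HPDE with residual medium against untreated, keratin-binding genes went from 3 higher and 2 lower to 1 and 2.

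The simple share by reads instead of FPKM was 42.9% untreated, 55.1% with residual medium, 40.2% with PANC-1 and 54.4% with PPCL-68 vesicles, since reads weight long transcripts. Size factors moved the all-gene median of untreated HPDE against HPNE from 0.38 to 0.07, and 10 of 10 members stayed higher. For all but KRT8 and KRT18 the filter on low values largely set that direction. Depth limits KRT16 in HPDE and every member but KRT8 and KRT18 in HPNE.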
